A study of Mus musculus with 10 samples.

Results

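Lipopolysaccharide (LPS) alters the level of a large share of macrophage transcripts, and a compound given with it can act on those transcripts or on others. The genes described here were chosen in RAW264.7 cells because their level with LPS lay inside a window around their level without it, and because it was different when 32 µM of compound **1**, the fatty acid 9-keto-hexadec-7-enoic acid with a 7(E) double bond, was present. They were 91 of the 24140 genes with at least 1 count (43432 genes were listed), 58 of them higher (0.24% of genes with a count) and 33 lower (0.137%) at 32 µM. The members were chosen on CPM, a gene's count scaled to its library's total count. A gene entered when the log2(mean CPM + 1) of its DMSO + LPS libraries lay within 0.4 of the DMSO libraries, when that of the 32 µM libraries differed from DMSO + LPS by 0.5 or more, and when both 32 µM libraries lay on the same side of both DMSO + LPS libraries. Symbols beginning with Gm, mt-, Slc, Gst or Mgst and the genes Lars2, Nqo1 and Adh7 were set aside, which removed 8 genes that otherwise passed, among them Gsta3, Slc6a9 and Slc48a1. Of the 714 genes past the 32 µM criteria, 615 had an LPS difference of 0.4 or more, so 13.9% lay inside the LPS window before symbols were set aside, against 75.9% of the genes with a count and 8357 of the 14172 genes that passed a filter on low counts.

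RAW264.7 is a mouse macrophage line. One group received the vehicle alone (DMSO, 0.5%), and the other 4 groups received LPS at 1 µg/mL together with DMSO (DMSO + LPS) or with **1** at 32, 10 or 3.2 µM. Per the study's methods the compound was given 1 h before LPS, and RNA was taken at 12 h. Each group had 2 poly(A) libraries, which the labels call bioreps 1 and 2. Nothing states whether these came from separate cultures, so a p-value here measures only the spread between libraries. No group received **1** without LPS, and a single cell line limits the model.

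Compound **1** carries an α,β-unsaturated ketone, a group that reacts with thiols. Such electrophiles modify Keap1, the protein that holds the transcription factor Nrf2 for degradation, and freed Nrf2 binds antioxidant response elements (AREs) in genes for detoxification, thiol supply, NADPH supply and export. LPS acts through Toll-like receptor 4 and drives the NF-κB and interferon programs, and it raises part of the Nrf2 program as well.

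The name of the group needs a limit. In 62 of the 91 members the DMSO + LPS libraries did not overlap the DMSO libraries (35 above, 27 below), where 26.1% of all tested genes lay above and 53.1% below. The rule used these values, so the counts are a description, and the window holds small LPS differences and not their absence. The LPS difference was under 0.2 in 44 members and between 0.3 and 0.4 in 21. Since 1 was added to each CPM before the logarithm, low genes could pass with large ratios: 10 members differed by 1.5-fold or more between DMSO and DMSO + LPS, all of them under 5 CPM. Serpinb9e was 8.92-fold higher with LPS in mean CPM, and Wdr64 and Trdj1 had no count in either DMSO library. The window also depended on scaling. With trimmed mean of M-values (TMM) scaling in place of column totals, LPS differences shifted by 0.21 on the log2 scale and 47 of the 58 and 22 of the 33 remained members, while the 32 µM difference shifted by less than 0.01. On TMM-scaled counts most members were above DMSO with LPS: 39 of the 58 higher members (median log2 fold change 0.21) and 30 of the 33 lower members (0.37) lay above 0, against a median of 0.0026 over all tested genes. On that scale most lower members thus had a fold change above 0 with LPS and below 0 with 32 µM **1**.

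**Figure D1:**
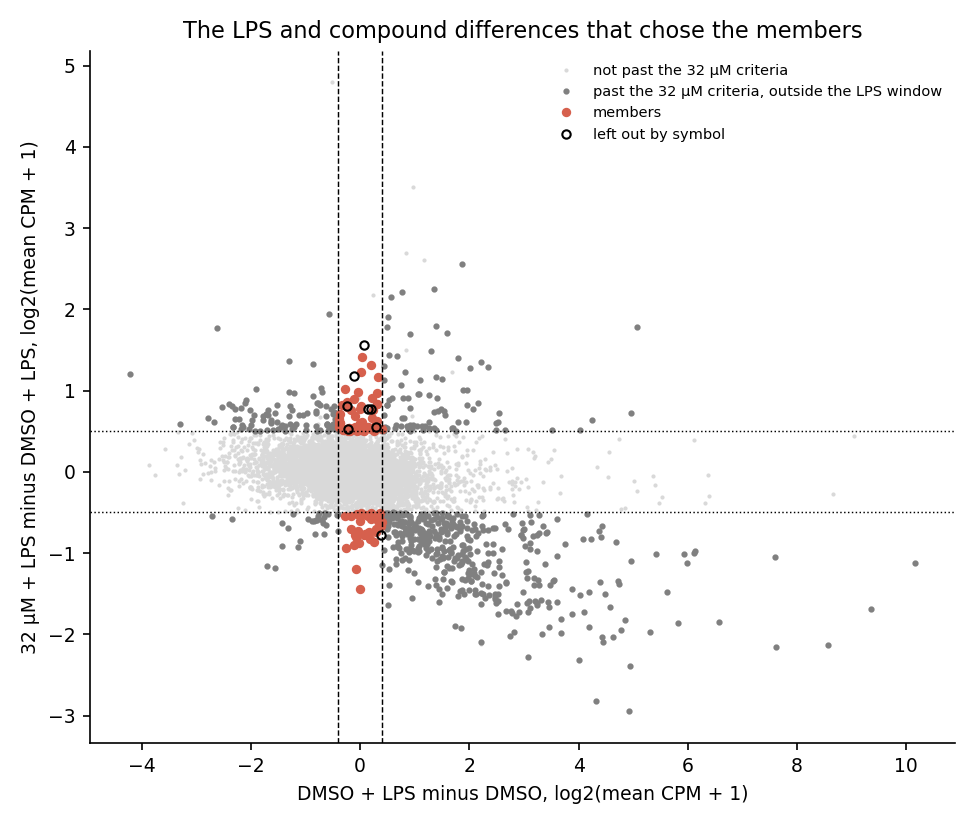
Each point is a gene with at least 1 count. The x axis is the difference in log2(mean CPM + 1) between DMSO + LPS and DMSO, and the y axis that between 32 µM + LPS and DMSO + LPS. The 91 members (red) lie between the dashed lines at 0.4 on either side of 0 and past the dotted lines at 0.5, and the dark grey points are the 615 genes past the 32 µM criteria outside the LPS window, of which 438 were lower and 177 higher at 32 µM.

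Total counts ran from 45966803 to 58976377 per library. Of the macrophage markers all 10 were present at 1 CPM or more in some library, with a summed level of 7666 to 13528 CPM. This sum was 12388 and 13528 CPM without LPS, 10082 and 10207 CPM in DMSO + LPS, 9385 and 9540 CPM at 3.2 µM, 8403 and 9175 CPM at 10 µM and 7666 and 8418 CPM at 32 µM. Both 10 µM libraries lay below both 3.2 µM libraries, while those at 10 and 32 µM overlapped, and its part in the members' differences was not tested. Single markers did not all move as the sum did. From DMSO to DMSO + LPS, differences in log2(mean CPM + 1) included 0.861 in Adgre1, 0.372 in Spi1 and -1.10 in Mertk. Replicate 2 at 32 µM, replicate 1 at 10 µM and replicate 1 at 3.2 µM stood apart from the rest. In replicate 2 at 32 µM, Gm42418, Gm26917 and Lars2, features that collect ribosomal RNA reads, held 3.08% of the counts, against 0.0927 to 0.276% in the other 9 libraries. Without that library the rule gave 98 higher and 35 lower genes, 48 and 28 of them among the 91, and without replicate 1 at 32 µM it gave 71 and 207, of which 46 and 32 were among the 91. Replicate 1 at 10 µM held reads of epithelial genes: Epcam, Krt8, Krt18 and Cdh1 summed to 37.2 CPM there and to 5.57 CPM in replicate 1 at 3.2 µM, against 0 to 0.0952 CPM in the other 8. Fibroblast genes (Col1a1, Col1a2, Col3a1, Pdgfra, Dcn) summed to 7.65 and 1.27 CPM in the same libraries, against at most 0.283 CPM elsewhere. None of the 109 genes at 1 CPM or more in that 10 µM library and under 0.1 CPM in the 8 libraries other than it and 3.2 µM replicate 1 was a member. Genes that low in the libraries of the rule could not pass it, so this count says nothing of such reads in the members. In bulk RNA, a smaller number of cells of a type cannot be told apart from less RNA per cell.

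RefSeq promoter windows (GRCm38.p6) matched 71 of the 91 members, and the 250 bases before the start were searched for response elements on both strands. The windows of Abcc4, Blvra, Ahrr and Ifi213 are shown because each holds a core tied to the known regulation of its gene or gene family. Capitals mark TGACNNNGC or its complement (the ARE core) in Abcc4, an organic anion exporter, and in Blvra, biliverdin reductase A. They mark GCGTG (the xenobiotic response element core) in Ahrr, the repressor of the aryl hydrocarbon receptor, and, in Ifi213, a gene of an interferon-inducible DNA-sensor family, the core of the interferon-stimulated response element (ISRE), a pair of GAAA blocks with NN between them. All are written 5′ to 3′ on the gene's strand and end next to the RefSeq start.
Abcc4, chr14:118706220-118706299, minus strand: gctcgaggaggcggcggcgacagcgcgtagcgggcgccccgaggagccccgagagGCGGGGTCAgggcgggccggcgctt
Blvra, chr2:127070577-127070656, plus strand: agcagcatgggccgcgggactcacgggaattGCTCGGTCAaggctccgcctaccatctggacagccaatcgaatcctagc
Ahrr, chr13:74292332-74292451, minus strand: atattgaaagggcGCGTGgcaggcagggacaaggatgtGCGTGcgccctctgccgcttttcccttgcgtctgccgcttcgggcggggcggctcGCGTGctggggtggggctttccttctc
Ifi213, chr1:173599273-173599372, minus strand: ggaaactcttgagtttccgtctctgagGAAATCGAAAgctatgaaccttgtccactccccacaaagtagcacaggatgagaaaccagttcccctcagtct
The Ahrr window held 3 copies of its core. The ARE core stood in 7 of 49 higher members with a window (14.3%; Abcc4, Tmeff1, Grin2d, Emp2, Sema4d, Cnppd1 and Card19) and in 4 of 22 lower members (18.2%; Blvra, Usp25, Pla2g4c and Cfp), against 13.9% of the 10066 tested genes with a window. GCGTG stood in 42.9% of higher and 36.4% of lower members against 49.1% of all, and the ISRE core in 1 member of each direction (Glul and Ifi213) against 3.40% of all. The cyclic AMP element TGACGTCA was in 1 higher member (Mturn) and no lower member, against 3.14% of all. A match describes letters in the window and not a bound site.

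Among the higher members, the largest difference in log2(mean CPM + 1) was in Pcx (chr19:4510472-4621752), pyruvate carboxylase, which feeds oxaloacetate into the mitochondrion. Its level was 18.1 and 16.8 CPM in DMSO + LPS and 49.6 and 46.7 CPM at 32 µM, a 2.76-fold difference in mean CPM. It was 17.5 and 16.6 CPM without LPS, so all 4 libraries without **1** lay together. Without the added 1 CPM, which holds low genes back, fitted log2 fold changes at 32 µM were larger in several low genes, among them Spdye4b (2.78), Wdr64 (2.42) and Hvcn1 (1.58), than in Pcx (1.46). At 10 µM it was 27.7 and 26.1 CPM, between these levels, and at 3.2 µM 17.0 and 18.3 CPM, overlapping DMSO + LPS. Pcx overlaps Lrfn4 on the opposite strand (14.1 CPM on average), and whether the counting used strand is not given in the sources used here.

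Enzymes that reduce carbonyls or supply NADPH were put together here by known role and not by a tested list. They held the 2 most abundant higher members, Akr1a1 and Pgd. Akr1b3 (chr6:34302434-34317478), aldose reductase, was at 517 and 523 CPM in DMSO + LPS and at 999.8 and 959.9 CPM at 32 µM, 1.88-fold. Its libraries at 10 µM (735 and 718 CPM) lay well above those at 3.2 µM (511 and 512 CPM), and the latter were next to DMSO + LPS. Akr1a1, which reduces a broad range of aldehydes, was at 1219 and 1267 CPM in DMSO + LPS and at 1940.5 and 1645 CPM at 32 µM, 1.44-fold. It was at 986 and 900.2 CPM without LPS, so it sat at the edge of the LPS window. Pgd, the 6-phosphogluconate dehydrogenase of the pentose phosphate pathway, was at 1144 and 1167 CPM in DMSO + LPS and at 1770 and 1536 CPM at 32 µM, 1.43-fold. In both Akr1a1 and Pgd, replicate 1 was the higher of the libraries at 32 and at 10 µM. Cbr3, a carbonyl reductase, was far less abundant: 17.7 and 20.5 CPM in DMSO + LPS and 35.5 and 33.6 CPM at 32 µM, 1.81-fold. Cyb5a, the cytochrome b5 that passes electrons to lipid-modifying enzymes, was at 406 and 424 CPM in DMSO + LPS and at 787 and 630 CPM at 32 µM. Per kilobase of exon, Akr1a1 led all members in DMSO + LPS with 452 CPM per kb, ahead of Cd36 with 210 and Pgd with 179 CPM per kb.

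Exporters and lipid genes among the higher members, put together here by known role and not by a tested list, were Abcc4, Abcb4, Lipa and Cd36. Abcc4, which exports glutathione-linked and cyclic nucleotide anions and whose ARE core is shown above, was at 79.4 and 73.4 CPM in DMSO + LPS and at 149 and 155 CPM at 32 µM, 1.99-fold. It was at 76.0 and 81.8 CPM without LPS. Abcb4, a phosphatidylcholine floppase, was at 99.5 and 96.9 CPM in DMSO + LPS and at 172 and 180 CPM at 32 µM, 1.79-fold. Lipa, the acid lipase that frees fatty acids and cholesterol in lysosomes, was at 681 and 654 CPM in DMSO + LPS and at 1188 and 1175 CPM at 32 µM, 1.77-fold. Lipa had been slightly higher without LPS (790 and 805 CPM). Cd36, the fatty acid and oxidized lipoprotein receptor, was at 765 and 744 CPM in DMSO + LPS and at 1043 and 1147 CPM at 32 µM, 1.45-fold. At 3.2 µM Cd36 (722 and 753 CPM) overlapped DMSO + LPS. Outside these roles, Glul, glutamine synthetase, was at 45.6 and 45.3 CPM in DMSO + LPS and at 76.6 and 61.9 CPM at 32 µM.

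Surface receptors and channels included several genes at low level. Nrp1, the co-receptor for semaphorins and vascular endothelial growth factor, was at 29.4 and 25.9 CPM in DMSO + LPS and at 55.3 and 58.99 CPM at 32 µM, 2.06-fold. Sema4d, a semaphorin, was at 184 and 191 CPM in DMSO + LPS and at 276 and 258 CPM at 32 µM. Cacng8, known as an auxiliary subunit of glutamate receptors in neurons, was at 6.49 and 6.42 CPM in DMSO + LPS and at 18.2 and 17.0 CPM at 32 µM, 2.72-fold. Hvcn1, the voltage-gated proton channel that balances charge during the oxidative burst, was at 1.90 and 2.17 CPM in DMSO + LPS and at 6.46 and 5.77 CPM at 32 µM, 3.01-fold. Hvcn1 overlaps Tctn1 on the opposite strand, which averaged 2.78 CPM. Pf4, the platelet chemokine CXCL4, was at 3.48 and 4.13 CPM in DMSO + LPS and at 10.96 and 8.57 CPM at 32 µM, 2.57-fold. Kcnk13, a potassium channel, was more abundant, at 86.1 and 89.9 CPM in DMSO + LPS and at 131 and 130 CPM at 32 µM. Csf2rb2, a beta chain of the interleukin-3 receptor, was at 63.7 and 60.1 CPM in DMSO + LPS and at 97.7 and 97.0 CPM at 32 µM. As 10.6% of its 75-base words also occur in transcripts of other genes, chiefly Csf2rb, part of its count is uncertain.

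Transcriptional regulators among the higher members were Gata3, Ahrr, Hr, Fos, Zfp263 and Zfp764. Gata3, a factor best known from T helper cells, was at 5.34 and 6.61 CPM in DMSO + LPS and at 11.2 and 11.8 CPM at 32 µM, 1.92-fold. The T cell genes Cd3e and Cd8a were at 0 in every library, and of 6 T cell markers only Lck reached 1 CPM. Ahrr, whose promoter is shown above, was at 3.82 and 3.35 CPM in DMSO + LPS and at 6.84 and 8.14 CPM at 32 µM, 2.09-fold. Fos, an AP-1 subunit, was at 92.8 and 92.5 CPM in DMSO + LPS and at 131 and 133 CPM at 32 µM, 1.43-fold. At the 0.5 threshold stood Noct, the circadian protein nocturnin, with 23.8 and 24.2 CPM in DMSO + LPS and 34.0 and 34.8 CPM at 32 µM. Members tied to cell shape included Ezr (ezrin), Flnc (filamin C), Pdlim7, Tacc2 and Wwc1. Ezr, which ties the membrane to actin, was at 70.7 and 73.6 CPM in DMSO + LPS and at 117 and 129 CPM at 32 µM, 1.71-fold. Pdlim7, an actin-associated adaptor, was at 31.9 and 32.5 CPM in DMSO + LPS and at 49.1 and 45.1 CPM at 32 µM. Wwc1, a scaffold of the Hippo pathway, was at 5.14 and 5.60 CPM in DMSO + LPS and at 9.81 and 11.1 CPM at 32 µM, and already at 9.33 and 9.20 CPM at 10 µM. Tmeff1, a transmembrane protein with follistatin-like domains, was at 4.93 and 4.63 CPM in DMSO + LPS and at 9.27 and 9.75 CPM at 32 µM. The chaperone gene Dnajb4 was at 31.8 and 31.6 CPM in DMSO + LPS and at 47.6 and 51.7 CPM at 32 µM.

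**Figure D2:**
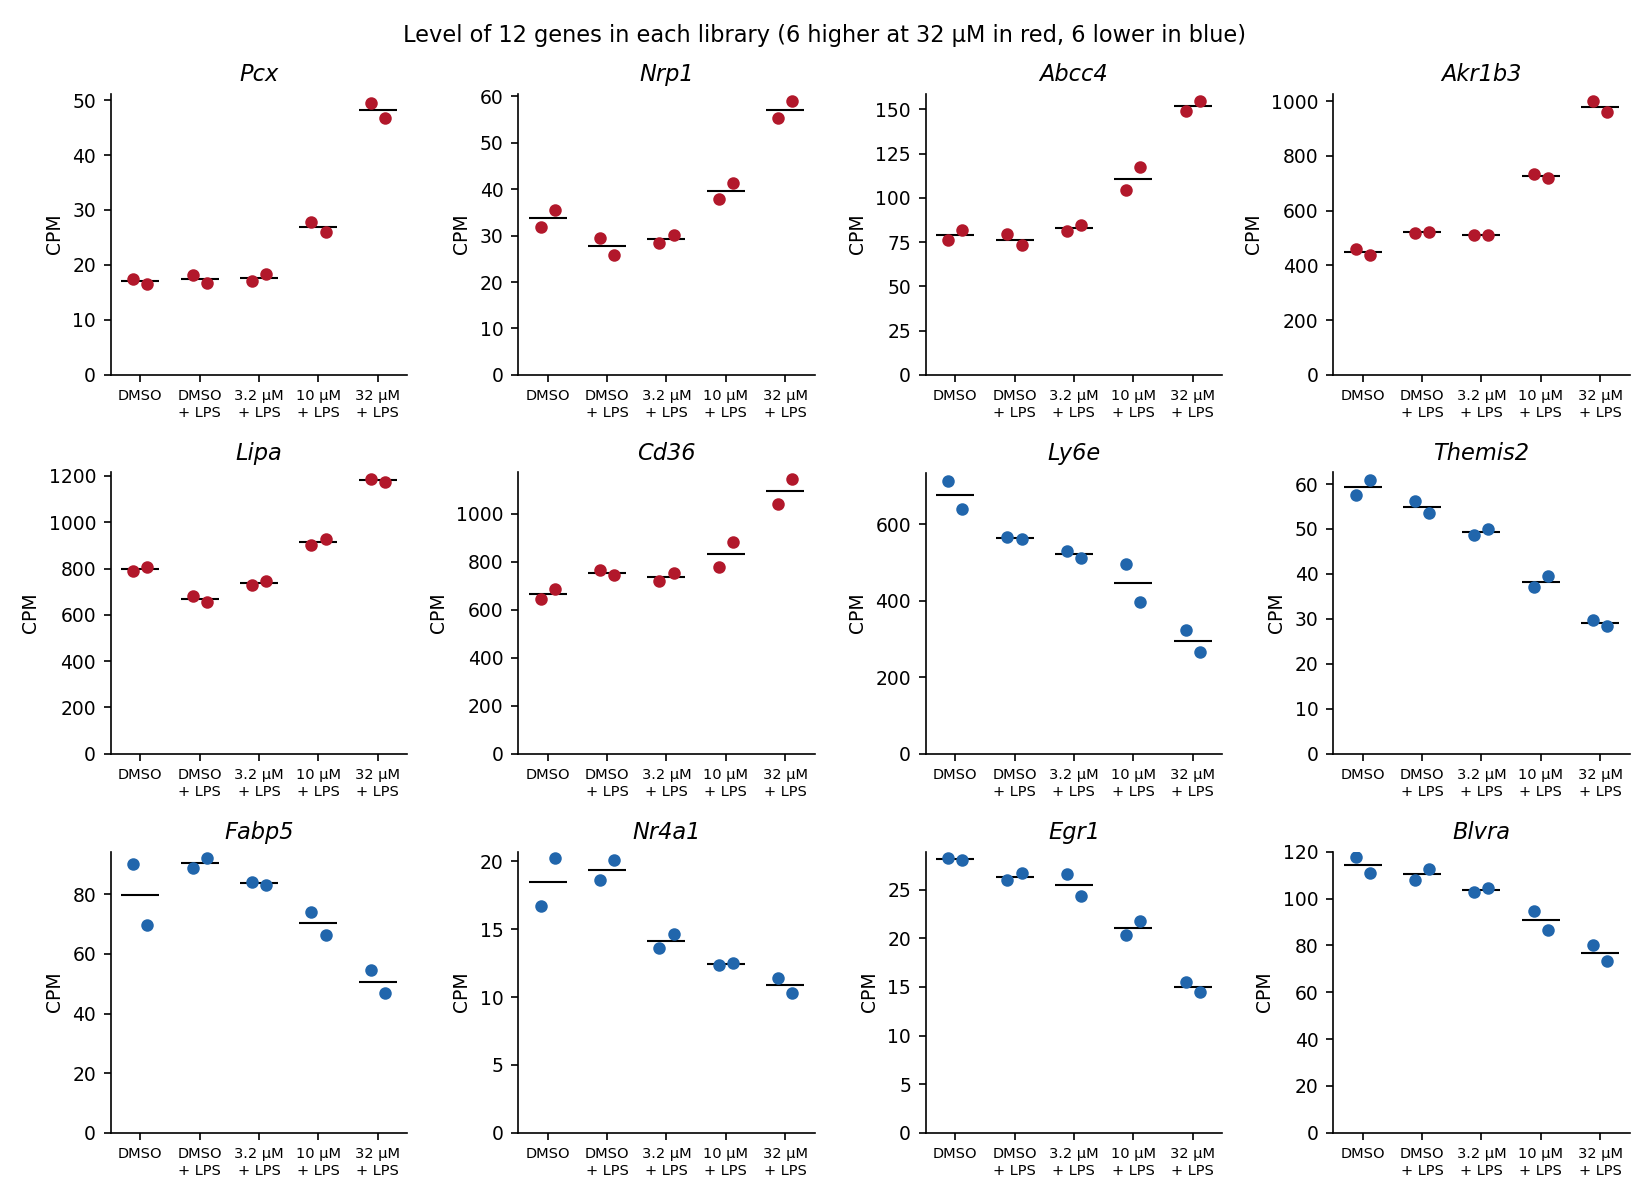
Points are the CPM of each of the 2 libraries per group (replicate 1 left, replicate 2 right), bars are their mean, and each y axis starts at 0. In the 6 genes drawn in red both 32 µM libraries stood above all others and in the 6 drawn in blue below all others, while Fabp5 spread from 69.7 to 90.04 CPM between the DMSO libraries.

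In log2(mean CPM + 1) the lower members were led by a pair of neighbours, 9930111J21Rik2 (chr11:49015874-49051242) and 9930111J21Rik1 (chr11:48946150-48979398), which lie 36476 bases apart and are related to the immunity-related GTPases, which interferon induces. 9930111J21Rik2 was at 13.9 and 10.5 CPM in DMSO + LPS and at 3.45 and 4.26 CPM at 32 µM, 3.17-fold lower. 9930111J21Rik1 was at 4.65 CPM in both DMSO + LPS libraries and at 1.05 and 1.87 CPM at 32 µM, 3.19-fold lower. Replicate 1 at 10 µM (4.81 and 1.76 CPM) lay far below replicate 2 (9.68 and 3.33 CPM) in both genes. In fitted log2 fold change Ms4a4b (-2.35), Smc1b (-2.31), Amotl2 (-1.95) and Akap12 (-1.86), all under 2 CPM, differed by more than this pair (both -1.67). The neighbours cannot be taken as independent genes: of the 75-base words of their transcripts, 76.0% (9930111J21Rik1) and 52.1% (9930111J21Rik2) also occur in transcripts of other genes, chiefly of each other. Their promoters are copies too, with 233 aligned bases of the windows identical and 0 mismatched. The window of 9930111J21Rik1 (chr11:48979382-48979631, minus strand) is shown for this reason, with the AP-1 core TGANTCA in capitals.
9930111J21Rik1: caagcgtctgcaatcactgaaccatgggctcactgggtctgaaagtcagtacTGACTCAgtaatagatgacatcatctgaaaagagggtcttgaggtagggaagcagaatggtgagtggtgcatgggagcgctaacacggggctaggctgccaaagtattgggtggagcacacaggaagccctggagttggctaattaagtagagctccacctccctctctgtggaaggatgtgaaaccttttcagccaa
This core stood in 2 of 22 lower members (9.09%, the copies just named) and in 2 of 49 higher members (4.08%, Ezr and Sema4d), against 5.70% of all tested genes with a window.

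Lower members with known roles in immune cells, put together by hand and not by a tested list, included Ly6e, Themis2, Cfp, Vsir, Ifi213 and Usp25. Ly6e, a lipid-anchored surface protein that restricts coronavirus entry, was the most abundant of them, at 566 and 561 CPM in DMSO + LPS and at 322 and 267 CPM at 32 µM, 1.91-fold lower. It was at 713 and 639 CPM without LPS, and at 10 µM its libraries differed (496 and 397 CPM). Themis2 (chr4:132781843-132796387), an adaptor in B cell and macrophage signaling, was at 56.3 and 53.6 CPM in DMSO + LPS and at 29.8 and 28.3 CPM at 32 µM, 1.89-fold lower. Cfp, properdin, which stabilizes the convertase of the alternative complement pathway, was at 173 and 184 CPM in DMSO + LPS and at 109 and 94.4 CPM at 32 µM, 1.75-fold lower. Vsir, the checkpoint receptor VISTA, was at 99.5 and 102 CPM in DMSO + LPS and at 69.4 and 68.0 CPM at 32 µM. Ifi213 (chr1:173566283-173599274) was at 25.6 and 24.6 CPM in DMSO + LPS and at 15.8 and 16.4 CPM at 32 µM, 1.55-fold lower, and 19.8 and 20.0 CPM without LPS. Usp25, a deubiquitinase that acts in innate signaling, was at 280 and 270 CPM in DMSO + LPS and at 171 and 186 CPM at 32 µM, 1.54-fold lower. It was at 194 and 223 CPM without LPS, at the edge of the LPS window. Outside these roles, Setdb2, a histone methyltransferase, was at 22.5 and 21.7 CPM in DMSO + LPS and at 11.9 and 13.9 CPM at 32 µM, 1.72-fold lower.

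Early response genes and genes of G protein and cyclic AMP signaling among the lower members, again put together by hand and not by a tested list, included Egr1, Nr4a1, Rgs1, Crem and Akap12. Prkar2b, a regulatory subunit of the cyclic AMP-dependent kinase, was a higher member, at 25.8 and 26.1 CPM in DMSO + LPS and at 42.7 and 42.2 CPM at 32 µM. Egr1 was at 26.0 and 26.7 CPM in DMSO + LPS and at 15.5 and 14.4 CPM at 32 µM, 1.76-fold lower, the opposite direction to Fos. Nr4a1, an orphan nuclear receptor, was at 18.7 and 20.1 CPM in DMSO + LPS and at 11.4 and 10.3 CPM at 32 µM, 1.78-fold lower. Nr4a1 was already at 13.6 and 14.6 CPM at 3.2 µM, below both DMSO + LPS libraries. Rgs1, which ends G protein signaling at chemokine receptors, was at 13.5 and 13.2 CPM in DMSO + LPS and at 6.74 and 8.31 CPM at 32 µM, 1.77-fold lower. At 3.2 µM Rgs1 stood above DMSO + LPS, at 15.0 and 15.7 CPM, and at 10 µM its libraries (11.9 and 13.5 CPM) overlapped it.

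In lipid, heme and other metabolism, Fabp5, a fatty acid binding protein, was at 88.9 and 92.1 CPM in DMSO + LPS and at 54.5 and 47.0 CPM at 32 µM, 1.78-fold lower. Its DMSO libraries differed by more than those of the other groups, at 90.04 and 69.7 CPM. Of its 75-base words 3.03% also occur elsewhere, chiefly in Gm6166, a gene that passed the rule as lower but was set aside by its symbol. Blvra, which turns biliverdin into bilirubin and is listed among Nrf2 target genes, was at 108 and 113 CPM in DMSO + LPS and at 80.2 and 73.5 CPM at 32 µM, 1.44-fold lower. The other 5 listed Nrf2 targets among the members were higher. Tpst1 (chr5:130073326-130135729), a tyrosylprotein sulfotransferase, was at 54.2 and 55.6 CPM in DMSO + LPS and at 29.4 and 29.5 CPM at 32 µM, 1.87-fold lower. Aida, an axin partner, was at 79.8 and 75.4 CPM in DMSO + LPS and at 41.2 and 43.4 CPM at 32 µM, 1.83-fold lower, and it overlaps Brox on the opposite strand (86.3 CPM on average). Hap1, a huntingtin-associated trafficking protein, was at 10.9 and 9.85 CPM in DMSO + LPS and at 5.51 and 6.15 CPM at 32 µM, 1.78-fold lower. The members nearest the threshold were Ap3m2, Tmem98 and Tspoap1, with differences of -0.511, -0.505 and -0.503 in log2(mean CPM + 1). The nearest genes outside it were Etnk1, Ifitm2 and Dgat2 (-0.493, -0.493 and -0.488). On the higher side, Cnppd1, Card19 and Noct (0.506, 0.503 and 0.5001) were just inside and Igsf11, Atf5 and Nkpd1 (0.496, 0.496 and 0.495) just outside.

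**Figure D3:**
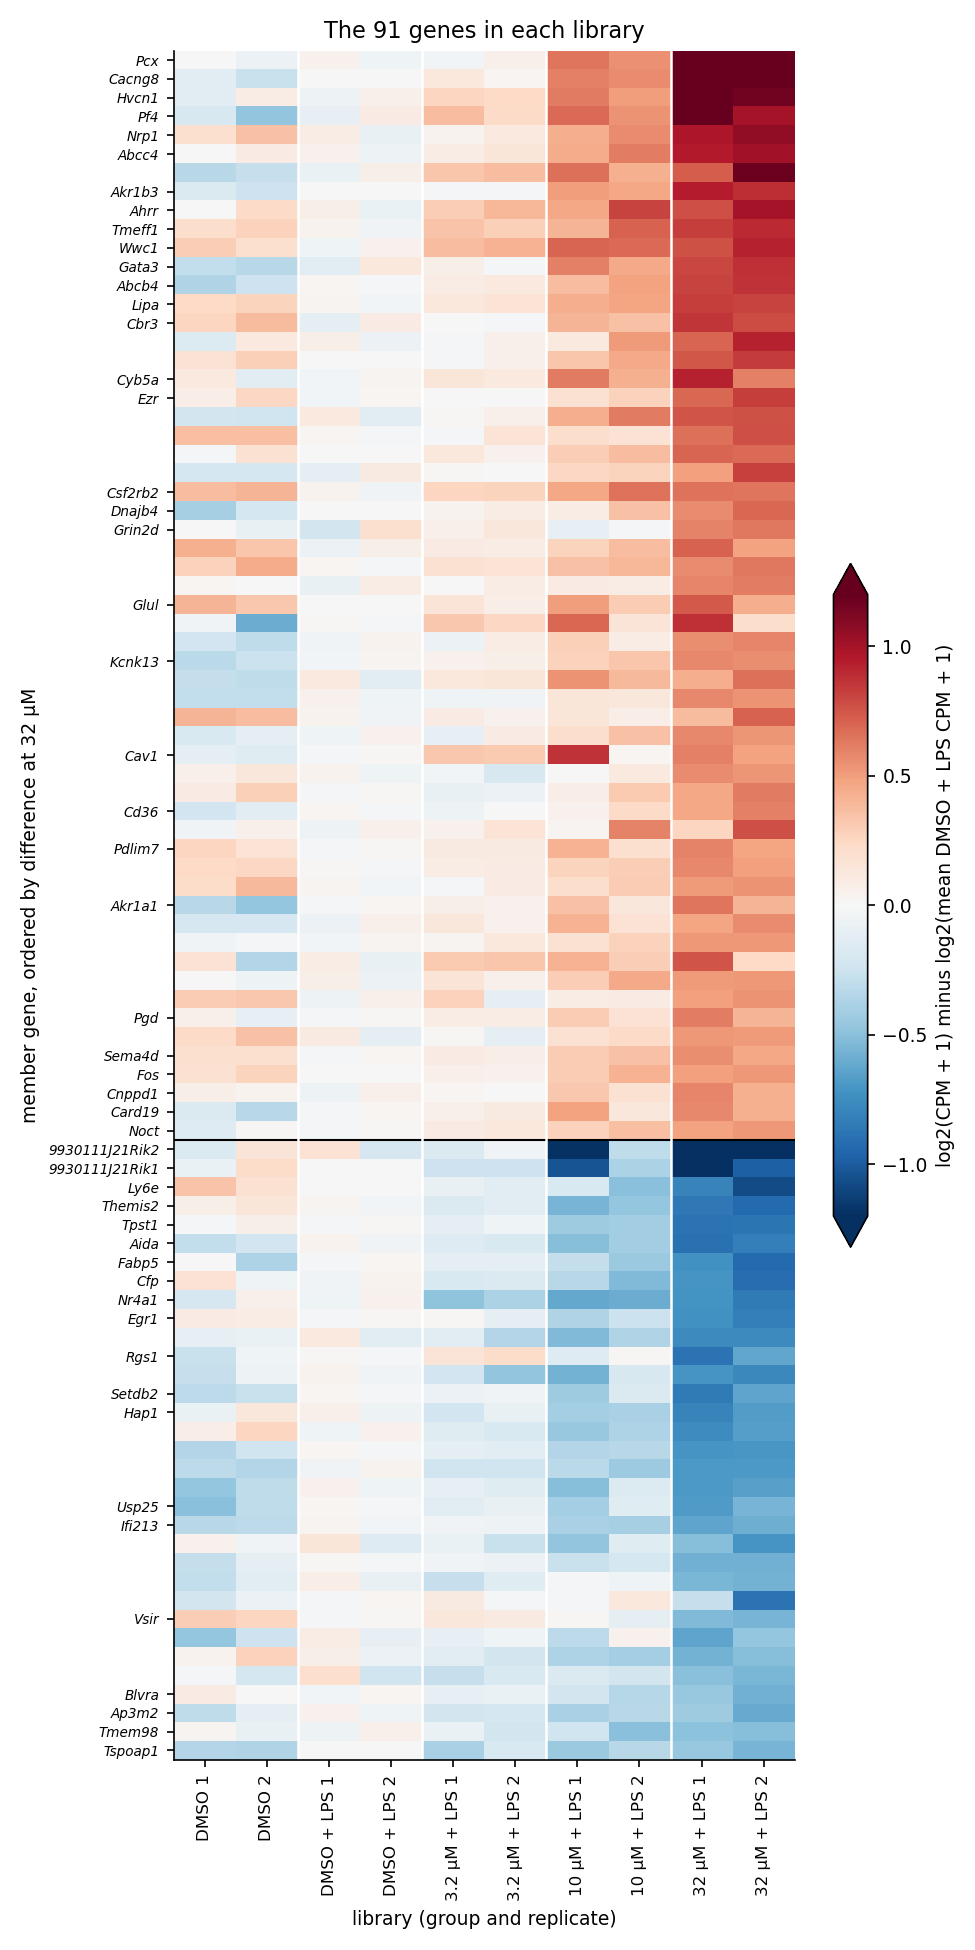
Rows are the 91 members ordered by their difference at 32 µM (58 higher above the black line, 33 lower below it), and columns are the 10 libraries, with symbols beside most genes described with values in the text. Color is log2(CPM + 1) minus that of the mean DMSO + LPS level, with values past 1.2 on either side at full color. The 10 µM columns hold the colors of the 32 µM columns in paler form in most rows, with Grin2d among the exceptions, and in Cav1 replicate 1 at 10 µM stands apart.

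At 10 µM, 47 of the 58 higher and 26 of the 33 lower members showed between 25 and 75% of their difference at 32 µM. These contrasts share the DMSO + LPS libraries with the choice of members, so they are given without a test. In log2(mean CPM + 1), the median difference from DMSO + LPS in the 58 higher members was 0.60 at 32 µM, 0.33 at 10 µM and 0.084 at 3.2 µM. In the 33 lower members it was -0.70, -0.36 and -0.15. The median member thus showed 52.0% (higher) and 49.9% (lower) of its 32 µM difference at 10 µM, and 13.03 and 17.8% at 3.2 µM. Members with at least 75% at 10 µM were Wwc1, Csf2rb2, H1fx, Fam13a and Cav1 on the higher side and Nr4a1 and Tspoap1 on the lower side. Members with under 25% included Grin2d, Numbl, Trdj1, Mturn, 2010016I18Rik and Rrad, and Dock10, Vsir, Amotl2 and Rgs1. Grin2d was the only higher member below DMSO + LPS at 10 µM in this measure, at 0.983 and 1.09 CPM against 0.814 and 1.43 CPM, and its libraries overlapped. Cav1 had 1.84 CPM in replicate 1 and 0.587 CPM in replicate 2 at 10 µM, and the former is the library with epithelial and fibroblast reads.

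The comparison of 10 with 3.2 µM set against each other 4 libraries that played no part in choosing the members. The spread, however, was estimated over all 10 libraries, including the 6 that the rule used. The comparison asked whether members moved with dose in the direction of their 32 µM difference. By edgeR's quasi-likelihood test with Benjamini-Hochberg adjustment over 14172 genes, 1 of the 58 higher members (Pcx) passed an adjusted p below 0.05 with 1.5-fold or more, against 0.0706% of all tested genes called higher. Of the 33 lower members 0 did, against 0.183% of genes called lower, and DESeq2's Wald test also called 1 and 0. Without the fold requirement, a rule added after the data were seen, 4 higher members (6.90%, against 0.254% of all) and 3 lower members (9.09%, against 0.649%) passed, each in its 32 µM direction. With the replicate number as a block, 8 higher members (Abcc4, Abcb4, Rnf128 and Fos besides the 4) and 3 lower members passed. The share of all genes at the blocked adjusted p is not given here. At an unadjusted p below 0.05 the block passed 35 higher and 21 lower members, against 4.87 and 5.04% of all tested genes. Without the block the unadjusted counts were 31 of 58 (53.4%, against 3.97%) and 15 of 33 (45.5%, against 4.40%). With edgeR fitted on the 4 compared libraries alone, 0 higher and 0 lower members passed the adjusted p, so no member was called without the libraries that the rule used. With 1.5-fold or more required, that fit called 0 of all tested genes higher and 0 lower, so its 0 is not particular to the members. In that fit 28 of 58 (2.49% of all tested genes) and 14 of 33 (3.47%) passed an unadjusted p below 0.05, and 56 and 31 lay in their 32 µM direction. All 91 members passed the filter on low counts, 24 of them with under 5 CPM in their higher condition.

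Akr1b3 gave the smallest adjusted p, at a log2 fold change of 0.49 (SE 0.04, edgeR adjusted p = 0.0033). Pcx followed at 0.59 (SE 0.07, edgeR adjusted p = 0.012). Lipa was higher by 0.29 (SE 0.04, edgeR adjusted p = 0.022) and Cacng8 by 0.55 (SE 0.08, edgeR adjusted p = 0.031). On the lower side Themis2 fell by 0.38 (SE 0.05, edgeR adjusted p = 0.024), Tpst1 by 0.36 (SE 0.05, edgeR adjusted p = 0.028) and Ifi213 by 0.38 (SE 0.06, edgeR adjusted p = 0.029). Lipa at 10 µM was at 901 and 929 CPM against 731 and 747 CPM at 3.2 µM. Cacng8 was at 10.3 and 10.1 CPM against 7.15 and 6.56 CPM. Themis2 was at 37.1 and 39.6 CPM against 48.7 and 49.9 CPM, and Tpst1 at 40.5 and 41.03 CPM against 50.6 and 52.9 CPM. Ifi213 was at 18.9 and 18.8 CPM against 24.3 and 24.0 CPM. In all of these both libraries of one dose lay apart from both of the other. The calls were few enough for single libraries to decide them, over all tested genes as well as in the members. Over alternatives that included leaving out each compared library, log2 fold changes kept their sign. They ran from 0.462 to 0.507 in Akr1b3, 0.535 to 0.640 in Pcx, 0.263 to 0.309 in Lipa and 0.488 to 0.614 in Cacng8. In Themis2 they ran from -0.436 to -0.346, in Tpst1 from -0.396 to -0.331 and in Ifi213 from -0.388 to -0.358.

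The members as a whole were displaced in this comparison. The median log2 fold change was 0.29 in the higher and -0.25 in the lower members, against 0.0070 over all tested genes. Of the higher members 56 of 58 (96.6%) lay above 0, against 52.5% of all tested genes, and of the lower members 31 of 33 (93.9%) below 0, against 47.5%. The 10 and 3.2 µM libraries did not overlap in 49 of 58 higher members (84.5%, against 21.2% of all genes) and in 26 of 33 lower members (78.8%, against 13.6%). Exceptions without overlap were Grin2d, lower at 10 µM (0.983 and 1.09 CPM against 1.21 and 1.33 CPM), and Amotl2, higher at 10 µM (0.732 and 0.696 CPM against 0.457 and 0.598 CPM), both near or under 1 CPM. Leaving out replicate 1 at 10 µM left the medians at 0.27 and -0.25, and leaving out replicate 1 at 3.2 µM left them at 0.28 and -0.23. Replicate 2 at 10 µM alone stood above both 3.2 µM libraries in 50 of 58 higher members (46.8% of all tested genes) and below them in 26 of 33 lower members (36.4%). Between the replicate 2 libraries alone, which hold few or no epithelial reads, 10 µM was above 3.2 µM in 52 of 58 (54.9% of all) and below it in 28 of 33 (44.6%).

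**Figure D4:**
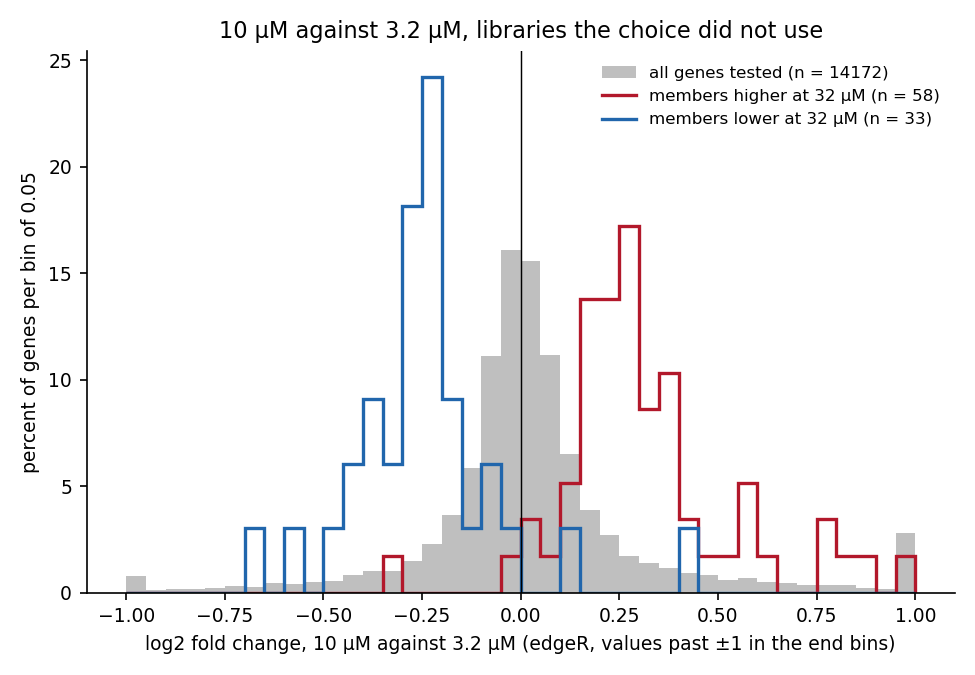
The x axis is edgeR's log2 fold change of 10 µM against 3.2 µM and the y axis the percentage of genes per bin, for all 14172 tested genes (grey), the 58 higher members (red) and the 33 lower members (blue). The red outline centers at 0.29, the blue outline at -0.25 and the grey distribution at 0.0070.

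Read against pathway lists, 15 of the 91 members stood on 1 of the 17 lists or more and 76 on none. The Nrf2 target list held 6: Abcc4, Akr1b3, Akr1a1, Cbr3, Cd36 and Blvra. Of its 59 tested genes, 11 passed edgeR's adjusted p as higher at 10 than at 3.2 µM and 0 as lower, with a median log2 fold change of 0.20, and at an unadjusted p below 0.05 there were 31 and 1. Of all tested genes, 0.254% passed the adjusted p as higher and 0.649% as lower, and 3.97 and 4.40% passed the unadjusted p. Besides Akr1b3 the 11 were Gclm, Srxn1, Prdx1, Nqo1, Adh7, Osgin1, Slc48a1, Cat, Akr1b8 and Gsta1, of which Nqo1, Adh7, Slc48a1 and Gsta1 could not be members by symbol.

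The lipid list held Cd36 and Fabp5, which differed in direction at 32 µM, and at 10 against 3.2 µM 2 of its 48 tested genes passed as higher (Plin2 and Cpt1a) and 0 as lower (5 and 3 unadjusted, 2 and 1 by DESeq2). The early response factors held Fos, Egr1 and Nr4a1. None of its 30 tested genes passed edgeR's adjusted p, 7 were higher and 4 lower at an unadjusted p below 0.05, and DESeq2 called 1 higher and 3 lower. The pentose phosphate and NADPH list held Pgd alone, and 0 of its 19 tested genes passed (2 higher and 1 lower unadjusted, 1 and 0 by DESeq2). The heat-shock list held Dnajb4, and 0 of 23 passed (1 and 1 unadjusted, 1 and 1 by DESeq2). The adhesion and cytoskeleton list held Ezr and Pdlim7, and 1 of 71 passed, as lower (Spp1), with 12 higher and 6 lower unadjusted and 2 and 4 by DESeq2. The G protein-coupled receptor list held Rgs1, and 2 of 57 passed as lower (Ccrl2 and Rgs2), with 5 higher and 8 lower unadjusted and 1 and 4 by DESeq2. The iron and heme list held Blvra, and 2 of 23 passed as higher (Slc48a1 and Alas1), with 4 higher and 3 lower unadjusted and 4 and 0 by DESeq2. DESeq2's counts per list used the adjusted p alone, and the share of all genes it passed is not given here.

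No member was on the interferon or NF-κB lists. The LPS window kept out genes with larger LPS differences, so this absence was largely fixed by the choice. Ifi213 and the 9930111J21Rik pair, related to families that interferon induces, were members but not listed. With LPS, edgeR called 46 of 46 tested interferon-stimulated genes and 44 of 45 NF-κB-dependent genes higher, against 14.6% of all tested genes. These calls describe the lists and not the members. At 10 against 3.2 µM, 16 of the 46 and 7 of the 45 passed the adjusted p as lower, and 0 and 1 as higher. Unadjusted, 37 and 24 were lower and 0 and 1 higher. The other lists held no member either. Sterol and fatty acid synthesis had 0 higher and 2 lower of 34 in this comparison (1 and 19 unadjusted, 0 and 8 by DESeq2). Cell division had 1 higher and 0 lower of 55 (6 and 3 unadjusted, 1 and 1 by DESeq2). The ATF4 list (35 tested genes), the p53 list (25), the hypoxia list (30), the lysosome list (42) and the circadian list (16) had 0 by edgeR's adjusted p. At an unadjusted p below 0.05 they had 2, 1, 1, 3 and 3 higher and 1, 2, 2, 2 and 0 lower, and DESeq2's Wald test called 0 in each but the lysosome list, where it called 2 higher.

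In position the members were spread over 20 chromosomes, with 9 on chromosome 1 and 8 on chromosome 11. Of the pairs less than 1 Mb apart, 6 shared a direction: Chml with Wdr64, 9930111J21Rik1 with 9930111J21Rik2, Myo1d with Tmem98, Card19 with Fgd3, Ms4a4b with BE692007, and Sh2d3c with Ralgps1. Tnnc1 with Sh3bp5 did not. Median exon length was 4747 bases in the higher and 4895 bases in the lower members, against 3925 bases over tested genes. An expressed gene overlapped 14 members. Of these Chml (Opn3), B230216N24Rik (Pam) and 9930111J21Rik1 (Psme2b) share a strand with it, and reads of such pairs cannot be told apart where they overlap. At least 10% of 75-base words were shared with other genes in 7 members (both 9930111J21Rik genes, Noct, Serpinb9e, Zfp764, Csf2rb2 and Spdye4b), and 66 members shared none.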

How the data were processed

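Poly(A) RNA from 10 RAW264.7 libraries was sequenced by the authors, who deposited a table of raw counts per Ensembl gene. The submitters' processing notes name Trimmomatic, FastQC, STAR, DESeq2 and mm10. The counting tool, its strand setting and its annotation are not given in the sources used here. Symbols and positions came from GENCODE M21 (42462 of 43432 identifiers matched). Rows without a symbol held 0.132% of counts. Groups came from the treatment labels.

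The members and the 17 pathway lists were chosen with earlier results of these data known. The members follow the CPM rule given in the report (pseudocount 1). Their differences at 32 µM and with LPS chose them and are given without a test. Calls by edgeR with LPS are given for the interferon and NF-κB lists, which hold no member. The comparison of 10 with 3.2 µM was fitted in edgeR 4.0.16 (R 4.3.3) by glmQLFit and glmQLFTest on all 10 libraries, with TMM scaling and filterByExpr at a minimum count of 10, which kept 14172 genes. A call needed a Benjamini-Hochberg adjusted p below 0.05 and 1.5-fold. Log2 fold changes are fitted values on TMM-scaled counts. With 2 libraries a group an exact test cannot go below p = 0.333, so the fit borrows spread across genes (common biological coefficient of variation 0.128). The script was tested on simulated counts.

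Values were named for the 12 largest differences in each direction at 5 CPM or more, the 2 most abundant members in each direction, members on a list, members called and the genes nearest the threshold. Lipa, Ifi213 and the other members given with values were added after their values were seen. Shared sequence was the percentage of 75-base words of a gene's GENCODE transcripts found in transcripts of other genes. The labels name each library a biorep, and each was counted as its own sample. Counts of the same group differed by more than counting noise (chi-square per degree of freedom 3.33 to 181), so no library was a copy of another, which does not show separate cultures. Alternatives covered scaling (DESeq2 1.42.0 size factors, library totals), filters, tests, a replicate block, single libraries left out and each setting of the rule. A few members are counted but not reported here by name.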

Additional observations from a re-analysis of the deposited data

How the results depend on the processing

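Calls between 10 and 3.2 µM depended on the processing far more than the direction did: none of the settings gave a member past the adjusted p against its 32 µM direction, and none reversed a result. Over all genes, 10 were called higher and 26 lower. These counts became 16 higher (lower within 1.5 times) by DESeq2's Wald test, 20 and 41 by edgeR's likelihood ratio test, 0 and 0 with edgeR on the 4 compared libraries alone, and 36 and 92 with the adjusted p alone, chosen after the data were seen. Leaving out 1 library at a time gave 1 to 27 higher and 4 to 39 lower, where the lone library is assumed to vary like the other groups. Of the members, 1 higher and 0 lower were called. The former became 0 without the count filter and on 4 libraries, 0 to 1 with a library left out, and 4 with the adjusted p alone, under which the lower count was 3. Under the adjusted p alone the 4 higher calls became 9 without a filter, 10 with a mean of at least 5 CPM, 17 by DESeq2, 10 by the likelihood ratio test, 0 on 4 libraries and 0 to 2 with a library left out. The 3 lower calls became 6 by DESeq2, 0 on 4 libraries and 0 to 1 with a library left out. The fit on 4 libraries has fewer libraries to estimate spread, and its filter and scaling were made on those libraries alone. For none of these changes was the cause tested. The share of all genes at the adjusted p alone is given here for the main setting only.

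With the replicate number as a block, 8 higher members passed the adjusted p, with Abcc4, Abcb4, Rnf128 and Fos added to the 4. With the fold requirement as well, 15 genes in all were called higher. No label says that a number marks a shared culture or day. Deviations of same-numbered libraries correlated at 0.57 between 10 and 3.2 µM and at 0.10 to 0.53 between the other groups except DMSO + LPS, whose correlations with the 4 others were -0.17 to -0.066. Other block results stayed within 1.5 times of the unblocked ones.

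Members per setting of the rule numbered 58 higher and 33 lower. A threshold of 0.6 gave 28 higher and a pseudocount of 0.5 gave 56 lower. Leaving out 1 library gave 55 to 98 higher, the most without replicate 2 at 32 µM, and 31 to 207 lower, the most without replicate 1 at 32 µM. TMM scaling gave 62 higher and 25 lower. It dropped 11 higher members, among them Akr1b3, Akr1a1, Abcb4, Pf4, Gata3, Kcnk13, Dnajb4, Flnc, Card19 and Noct. It also dropped 11 lower members, among them Ifi213, Aida, Usp25, Setdb2, Myo1d, Ap3m2 and Tspoap1. For 42 members with tests, 446 of 503 values under alternatives kept their side of the threshold, 25 gained a call and 32 lost one. Most of the 42 did not pass in the main fit and had no call to lose. All 32 losses were in the members that did pass.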
